A study of Mus musculus with 12 samples.

Results

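Cathepsins K, L and S (Ctsk, Ctsl and Ctss) are lysosomal cysteine proteases, and their transcripts were followed here through a mouse skin burn. The members were chosen by annotation: every probe set, the group of array probes read as 1 value, whose annotation named exactly 1 of the 3 genes. Each gene had 1 probe set, namely 160406_at for Ctsk, 101963_at for Ctsl and 98543_at for Ctss. The members are thus 3 of the 5599 genes named alone by at least 1 of the 7275 probe sets with deposited values. All 3 were above the floor on all 12 arrays and were among the 3477 genes tested. The study took skin from mice given a thermal injury and hybridised total RNA to 1 Affymetrix array per sample, with 3 samples per time point (0 hours, 2 hours, 3 days or 14 days after injury). No strain, age, sex, wound depth or treatment is given in the labels, which also do not say whether the 0 hours skin had itself been burnt. They do not say whether the 3 repeats at a time came from separate animals, so every p-value reflects only how much these samples vary, and that variation may be technical.

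Cathepsins are made as inactive precursors and are activated in the acidic endosome and lysosome, where they break down proteins delivered by endocytosis, phagocytosis and autophagy. Cathepsin K cleaves the collagen triple helix; it is the main bone-resorbing protease of osteoclasts and is also made by fibroblasts. Cathepsin S is made mostly by macrophages, dendritic cells and B cells, stays active at neutral pH, and trims the invariant chain during antigen presentation by MHC class II. Cathepsin L is made by many cell types, and mice that lack it have abnormal hair follicle cycling and a thickened epidermis. Cystatins are the natural inhibitors of these enzymes.

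The arrays had medians between 448.4 and 496.4 intensity units. Spearman correlations between arrays were 0.875 to 0.960 within a time point and 0.802 to 0.940 between time points, and 0 hours replicate 3 had the lowest mean correlation with the other arrays (0.851). The log2 ratio of the 3' to the 5' Gapdh control probe sets was taken as a measure of RNA integrity. A higher ratio means less signal from the 5' end, as when RNA is less intact. It was 1.99 ± 0.29, 1.54 ± 0.46, 0.52 ± 0.50 and 0.21 ± 0.08 at 0 hours, 2 hours, 3 days and 14 days (SD, n = 3 each). The mean ratio was thus highest at 0 hours, the reference for the changes from 0 hours. The mean log2 intensity of 26 skeletal muscle genes was 13.25 ± 0.47, 12.66 ± 0.10, 12.12 ± 0.55 and 12.29 ± 0.25 in the same order. Both measures moved with time, as did the cathepsins, and each was put into the fit as a covariate, with the result given beside each gene.

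Ctsk fell early and stayed low through day 3. Its intensity was 3119.6, 2894.4 and 2894.8 on the 0 hours arrays and 1285.1, 1227.3 and 1184.9 on the 2 hours arrays. It was 1696.1, 1782.6 and 1350.9 on the 3 days arrays and 2630.4, 1727.4 and 2053.2 on the 14 days arrays. Every later array was below the lowest 0 hours array, and the 2 hours arrays were the lowest of all. The means were 2969.6 ± 129.9, 1232 ± 50.3, 1609.9 ± 228 and 2137 ± 457 in that order of time (SD, n = 3 each).

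The level at 2 hours was 41.5% of that at 0 hours, a log2 change of -1.27 ± 0.19 (SE; limma, adjusted p = 0.0016), which was the 19th largest fall among the 3477 genes tested. At that comparison 1.67% of all genes were called lower and 3.97% higher, where called means a limma p under 0.05 after Benjamini-Hochberg adjustment over all genes. At 3 days Ctsk was at 53.9% of the 0 hours level (log2 change -0.89 ± 0.19, limma adjusted p = 0.0075), against 4.40% of genes called lower and 8.89% higher. At 14 days the log2 change from 0 hours was -0.50 ± 0.19 (95% interval -0.90 to -0.087), which did not pass (limma adjusted p = 0.11), while 3.22% of genes were called lower and 6.90% higher. At 14 days Ctsk was 1.71-fold higher than at 2 hours (log2 change 0.77 ± 0.19, limma adjusted p = 0.017), where 6.84% of genes were called higher and 5.38% lower. Ordered from high to low, the times ran 0 hours, 14 days, 3 days, 2 hours, and no neighbours in that order passed the test. The log2 change was 0.40 ± 0.19 for 14 days against 3 days (limma adjusted p = 0.46) and 0.38 ± 0.19 for 3 days against 2 hours (0.23).

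The fall at 2 hours was also called with the Gapdh ratio (log2 change -1.24, limma adjusted p = 0.0085) or the muscle mean (-1.20, limma adjusted p = 0.0093) as a covariate and without any 1 of the 12 arrays. The call at 3 days ended when 3 days replicate 3 was left out (limma adjusted p = 0.051) and with either covariate (-0.81, limma adjusted p = 0.90, and -0.76, limma adjusted p = 0.33). The call at 14 days against 2 hours was lost without 2 hours replicate 2 (0.060), 2 hours replicate 3 (0.068) or 14 days replicate 1 (0.098), and with the Gapdh ratio (0.85, limma adjusted p = 0.64).

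**Figure D1:**
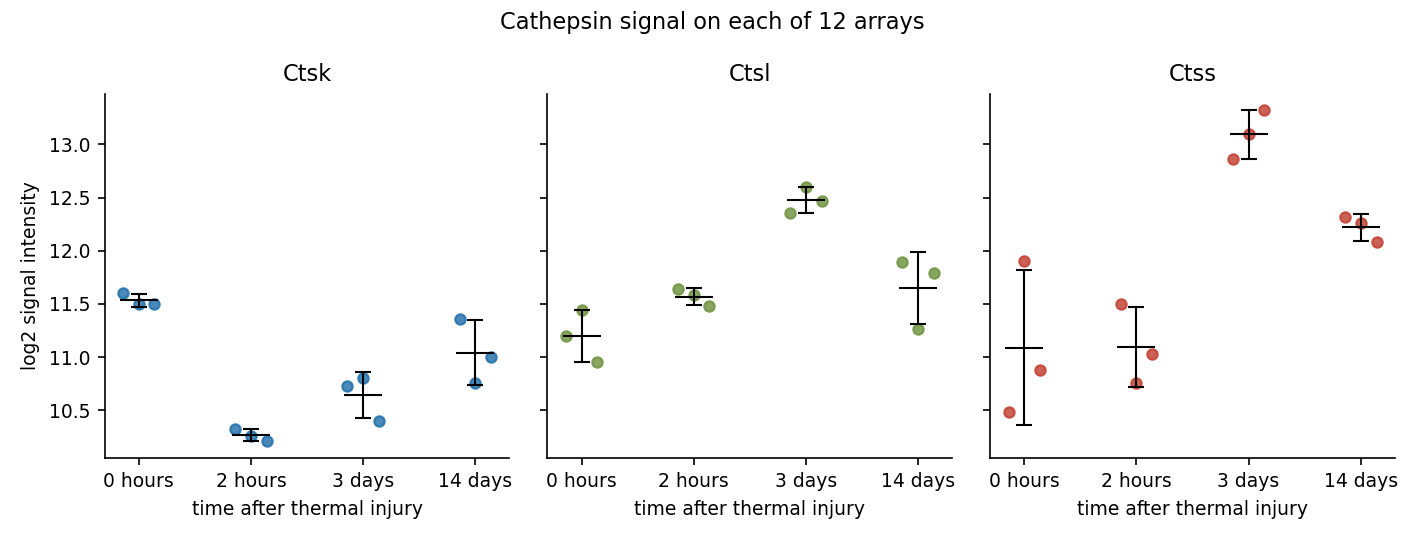
Log2 intensity of the Ctsk, Ctsl and Ctss probe sets by time after injury. Each point is 1 array and the bar is the mean ± SD of the log2 values (n = 3). Ctsk was lowest at 2 hours, where its arrays lay between 10.21 and 10.33. Ctsl and Ctss were highest at 3 days, where their lowest arrays were 12.36 and 12.87.

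Ctsl and Ctss went the other way, with their highest levels at 3 days. Ctsl intensity was 2345.8, 2780.5 and 1987 on the 0 hours arrays and 3187.4, 3075.3 and 2851.3 on the 2 hours arrays. It was 5246.7, 6217.6 and 5675.3 on the 3 days arrays and 3814.1, 2462 and 3535.9 on the 14 days arrays. The 3 days arrays were all above every other array, while the 14 days arrays overlapped those of 0 hours and 2 hours. The means were 2371 ± 397, 3038 ± 171, 5713 ± 487 and 3271 ± 714 (SD, n = 3 each).

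Ctsl was 2.43-fold higher at 3 days than at 0 hours, by 1.28 ± 0.20 on the log2 scale (SE; limma, adjusted p = 0.00092), the 110th largest rise among the genes tested. It was 1.88-fold higher at 3 days than at 2 hours (0.91 ± 0.20, limma adjusted p = 0.013), where 6.10% of genes were called higher and 3.31% lower. By 14 days it had fallen to 56.4% of the 3 days level (-0.83 ± 0.20, limma adjusted p = 0.036), where 2.10% of genes were called lower and 1.29% higher. The log2 change at 2 hours against 0 hours (0.37 ± 0.20, limma adjusted p = 0.30) did not pass. Nor did that at 14 days against 0 hours (0.45 ± 0.20, 95% interval 0.019 to 0.89, limma adjusted p = 0.16). In the order of levels (3 days, 14 days, 2 hours, 0 hours) only the first neighbours passed the test: 14 days against 2 hours was 0.08 ± 0.20 (95% interval -0.35 to 0.52, limma adjusted p = 0.84).

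The rise over 0 hours was called without any 1 array, but not with the Gapdh ratio (log2 change 1.02, limma adjusted p = 0.79) or the muscle mean (1.18, limma adjusted p = 0.17) as a covariate. The call at 14 days against 3 days was lost without 2 hours replicates 1 (limma adjusted p = 0.050) or 3 (0.055), 3 days replicates 1 (0.053), 2 (0.16) or 3 (0.11), or 14 days replicates 2 (0.22) or 3 (0.074). The call at 3 days against 2 hours was lost without 2 hours replicate 3 (0.059), 3 days replicate 2 (0.063) or 3 days replicate 3 (0.051) and with either covariate (0.73, limma adjusted p = 0.72, and 0.86, limma adjusted p = 0.069).

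Ctss rose at 3 days and was still up at 14 days, with the largest fitted change of the 3 genes. Its intensity was 1431.7, 3829.2 and 1885.6 on the 0 hours arrays and 2898.4, 1729.5 and 2083 on the 2 hours arrays. It was 7465.5, 8747.7 and 10253 on the 3 days arrays and 5120.5, 4894.2 and 4326.1 on the 14 days arrays. The arrays at 3 days lay above all others, those at 14 days lay above all at 0 hours and 2 hours, and 0 hours replicate 2 stood apart from its group. The means were 2382 ± 1274, 2237 ± 599, 8822 ± 1395 and 4780.3 ± 409 (SD, n = 3 each), and the coefficient of variation at 0 hours was 53.5%.

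At 3 days Ctss was 4.02-fold above 0 hours (log2 change 2.01 ± 0.30, SE; limma, adjusted p = 0.00065) and above 2 hours by as much (2.00 ± 0.30, limma adjusted p = 0.00087), the 39th and 30th largest rises among the genes tested. At 14 days it was still 2.19-fold above 0 hours (1.13 ± 0.30, limma adjusted p = 0.029) and 2.18-fold above 2 hours (1.13 ± 0.30, limma adjusted p = 0.026). The 2 hours level differed from 0 hours by 0.00 ± 0.30 on the log2 scale (95% interval -0.64 to 0.65, limma adjusted p = 0.996), and the order of these times depends on the scale, since the mean intensity was lower at 2 hours. Its 14 days level was 54.5% of that at 3 days, but this change did not pass (-0.88 ± 0.30, limma adjusted p = 0.18, or 0.045 without 0 hours replicate 2). All 3 genes differed over the 4 time points by the limma F-test (adjusted p = 0.0018 for Ctsk, 0.0028 for Ctsl and 0.00075 for Ctss, the last becoming 0.066 with the Gapdh ratio), as did 21.1% of genes.

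Without any 1 of the 12 arrays the log2 change at 3 days against 0 hours was 1.70 to 2.41 and always called, but it was lost with the Gapdh ratio (1.48, limma adjusted p = 0.79) or the muscle mean (1.40, limma adjusted p = 0.24) as a covariate. The call at 3 days against 2 hours was lost with the Gapdh ratio alone (1.64, limma adjusted p = 0.25). The 14 days call against 0 hours was lost without 0 hours replicates 1 (limma adjusted p = 0.12) or 3 (0.074) or 14 days replicates 1 (0.099), 2 (0.080) or 3 (0.056). That against 2 hours was lost without 2 hours replicates 2 (0.11) or 3 (0.089) or 14 days replicates 1 (0.093) or 2 (0.081). Both were lost with the Gapdh ratio (0.49, limma adjusted p = 0.95, and 0.65, 0.90) and with the muscle mean (0.61, limma adjusted p = 0.61, and 0.92, 0.082).

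The members were then compared directly within each array, as the log2 difference between 2 probe sets. Only how the difference changed was read, since 2 probe sets have no common scale. These tests were not run with the Gapdh ratio or the muscle mean as a covariate. Ctss relative to Ctsk moved up by 2.90 at 3 days against 0 hours, a 7.46-fold change of the ratio, and by 1.63 at 14 days. The difference was -0.45 ± 0.78, 0.83 ± 0.34, 2.45 ± 0.42 and 1.18 ± 0.29 at 0 hours, 2 hours, 3 days and 14 days (SD, n = 3 each), and differed over time by an exact permutation test of the F statistic (two-sided, p = 0.000195, Benjamini-Hochberg p = 0.000292 over 3 pairs). For Ctsl relative to Ctsk the values were -0.34 ± 0.25, 1.30 ± 0.03, 1.83 ± 0.22 and 0.61 ± 0.15 (exact permutation p = 6.49e-05, the smallest the design can give, Benjamini-Hochberg p = 0.000195). That corresponds to ratio changes of 3.11-fold at 2 hours, 4.50-fold at 3 days and 1.93-fold at 14 days. For Ctss relative to Ctsl the differences were -0.11 ± 0.59, -0.47 ± 0.35, 0.62 ± 0.20 and 0.57 ± 0.37 (exact permutation p = 0.0379, Benjamini-Hochberg p = 0.0379). This last result ended (Benjamini-Hochberg p of 0.053 to 0.088) without 0 hours replicate 3, 2 hours replicates 2 or 3, any 3 days array or 14 days replicate 1.

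**Figure D2:**
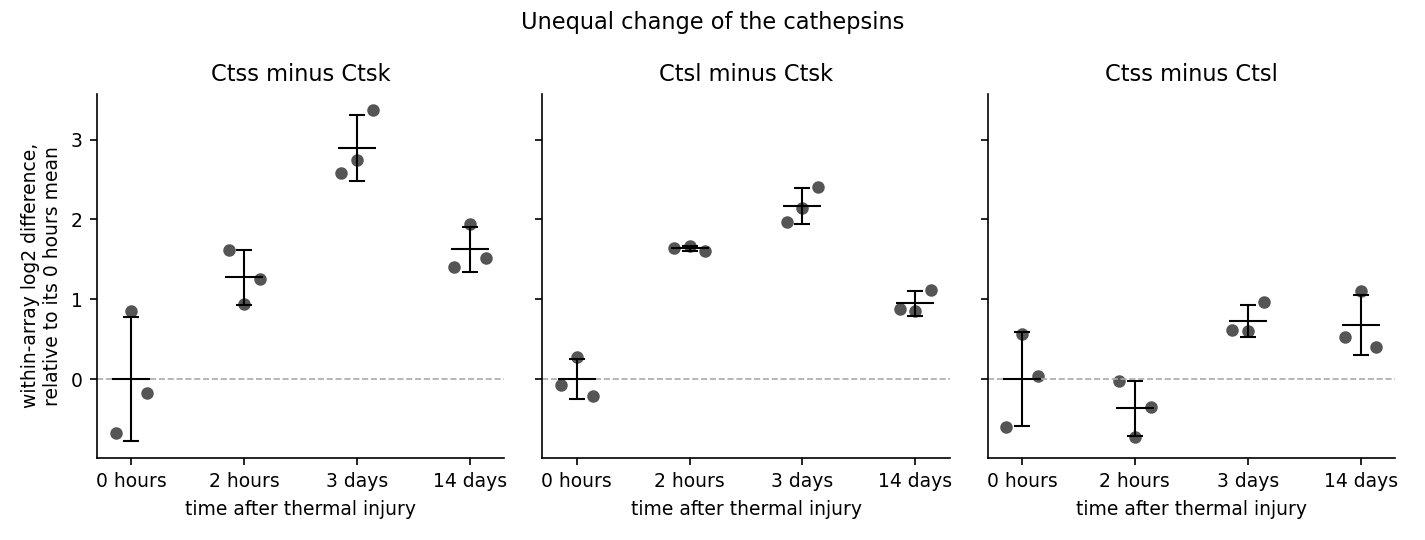
Within-array log2 difference between pairs of the cathepsins by time after injury, relative to its mean at 0 hours. Each point is 1 array and the bar is the mean ± SD (n = 3). Relative to 0 hours, Ctss minus Ctsk averaged 2.90 at 3 days and Ctsl minus Ctsk averaged 1.64 at 2 hours.

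Ctsk and Ctss are adjacent protein-coding genes on chromosome 3, between Arnt and Hormad1, while Ctsl lies on chromosome 13. The RefSeq window from 250 bases before to 50 bases after each gene's start (GRCm38.p6) is shown because these neighbours changed in opposite directions. The windows are Ctsk at chr3:95498960-95499259 (plus strand), Ctsl at chr13:64370471-64370770 (minus strand) and Ctss at chr3:95526536-95526835 (plus strand). Capitals mark every match to 6 motifs searched on both strands.
Ctsk: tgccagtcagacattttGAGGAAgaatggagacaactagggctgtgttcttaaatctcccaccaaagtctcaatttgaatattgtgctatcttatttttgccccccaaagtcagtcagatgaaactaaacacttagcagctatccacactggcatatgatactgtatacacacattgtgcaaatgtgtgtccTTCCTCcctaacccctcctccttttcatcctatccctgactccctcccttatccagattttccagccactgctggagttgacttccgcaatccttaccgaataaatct
Ctsl: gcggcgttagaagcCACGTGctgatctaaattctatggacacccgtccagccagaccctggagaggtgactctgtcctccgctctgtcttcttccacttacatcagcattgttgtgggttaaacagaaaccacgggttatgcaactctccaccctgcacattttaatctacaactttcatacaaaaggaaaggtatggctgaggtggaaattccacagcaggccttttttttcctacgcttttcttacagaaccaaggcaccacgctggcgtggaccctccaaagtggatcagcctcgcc
Ctss: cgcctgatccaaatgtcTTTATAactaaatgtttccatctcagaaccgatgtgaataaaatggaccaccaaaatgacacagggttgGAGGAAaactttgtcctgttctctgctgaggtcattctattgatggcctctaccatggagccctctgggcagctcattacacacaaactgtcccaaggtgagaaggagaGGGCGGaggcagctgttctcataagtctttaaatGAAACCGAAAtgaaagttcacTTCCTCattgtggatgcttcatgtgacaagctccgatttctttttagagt
The motif GAGGAA, the core bound by the myeloid factor PU.1, was found in Ctsk at bases 18 to 23 and 193 to 198 and in Ctss at bases 87 to 92 and 251 to 256, where base 251 is the gene start. It occurs in 28.3% of the 32851 promoters of the same length. Ctss also held GAAA, any 2 bases, GAAA at bases 230 to 239, the interferon-response element found in 3.44% of promoters, and GGGCGG, the GC box, at bases 196 to 201 (35.7%). The letters TATAAA of the TATA box lay on the minus strand of Ctss at bases 18 to 23 (13.6% of promoters). That is opposite to the gene's own strand and at -233 to -228 from its start. Ctsl held CACGTG, the E-box at the core of the lysosomal gene motif, at bases 15 to 20 (7.15%). TGACTCA, the AP-1 site, was in none of the 3 windows and is in 5.20% of promoters. The windows had 43.7% (Ctsk), 50% (Ctsl) and 44% (Ctss) G or C, against a median of 52.7%.

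Ctss was set beside a list of 33 monocyte and macrophage markers and Ctsk beside a list of 31 fibroblast markers. Of the macrophage markers, 27 had a probe set, 8 did not pass the filter on dim probe sets and 19 were tested. Of these 19, 18 rose at 3 days against 0 hours and none fell, with a median log2 change of 1.65 against 0.02 for all genes. Over all genes, 8.89% were called higher and 4.40% lower at 3 days, the shares to set beside each 3 days count in this paragraph. However, 5 of the 19 (Adgre1, Ccr2, Fcgr1, Fcgr2b and Spi1) passed the filter only through the 3 days arrays, where they are high, so the filter had part in fixing their direction. The other 14 all rose, with a median of 1.59. Cd53, a leukocyte tetraspanin, rose by 2.84 ± 0.25 (limma adjusted p = 1.2e-05), Fcgr2b, an IgG receptor, by 2.20 ± 0.25 (0.00015), Ccr2, a monocyte chemokine receptor, by 1.89 ± 0.23 (0.00026) and Lst1, a leukocyte transcript, by 1.73 ± 0.24 (0.00051). Fcgr2b and Ccr2 are among the 5 named above, so their p-values carry the same limit. Ctss exceeded 15 of the 19 markers in size of change at 3 days. This count, and the sums and counts of the 19 below, include the 5. At 14 days only 1 of 19, Lgals3, a galectin of macrophages and epithelia named here after its value was seen, was called (0 to 4 without any 1 array), a share near the 6.90% of all genes called higher. The median was 0.47, and Ctss exceeded 18 of the 19. The summed intensity of the 19 was 51442 to 78316 on the 3 days arrays, against 19876 to 22625 at 0 hours, and no marker was at the floor on all arrays of a time. In bulk skin, fewer or more cells of a type and less or more RNA per cell cannot be told apart. Minus the mean of the macrophage markers on the same array, Ctss was 1.43 ± 0.68, 1.42 ± 0.07, 1.80 ± 0.08 and 2.11 ± 0.14 on the log2 scale, in order of time (SD, n = 3 each). The macrophage count at 3 days was 17 to 19 without any 1 array, 0 with the Gapdh ratio as a covariate and 1 with the muscle mean. The number of all genes still called with each covariate is not given, here or for the other lists. Over all settings, the genes called at 3 days against 0 hours numbered 4 to 558 (462 as reported). That range spans every setting and not the covariates alone. Whether the loss with a covariate is particular to these markers was not tested. All 3 neutrophil markers tested also rose at 3 days, among them S100a8 (4.94 ± 0.76, limma adjusted p = 0.00076), but S100a9 passed the filter only through the 3 days arrays. Of 4 mast cell markers 3 rose, but Hdc, the histamine-forming enzyme, passed only through the 3 days arrays and was at the floor on all 0 hours arrays. Of 8 basal keratinocyte markers 3 rose at 3 days, with 0 left without 0 hours replicate 1 or 3 days replicate 3, 1 without 3 days replicate 2 and 5 without 0 hours replicate 2. Of 26 muscle markers 17 fell, with 8 left without 0 hours replicate 1 and 6 without 3 days replicate 3. Of 11 hair follicle markers 2 fell, a count of 1 to 4 without any 1 array. The 2 were Krt71, at the floor on all 3 of the 3 days arrays, and S100a3, at the floor on 2 of them. The floor limits the size of both changes. None of 4 endothelial and 5 adipocyte markers passed, and the lymphocyte list had no tested gene but Thy1, which the fibroblast list also holds. With either covariate none of the neutrophil, mast cell, keratinocyte, muscle and hair follicle markers was called at 3 days. The part of these cells in the rise of Ctss was not tested.

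Of 25 fibroblast markers tested, 4 fell and none rose at 2 hours (median log2 change -0.15 against 0.05 for all genes), 2 fell and 1 rose at 3 days (median 0.20; over all genes 4.40% fell and 8.89% rose), and 1 fell and 6 rose at 14 days (median 0.38 against 0.05). Over all genes 1.67% fell and 3.97% rose at 2 hours, and 3.22% fell and 6.90% rose at 14 days. Ctsk had a lower log2 change than 24 of the 25 at 2 hours, 23 at 3 days and 22 at 14 days. Col1a2, a chain of type I collagen, fell by 1.61 on the log2 scale at 2 hours (limma adjusted p = 0.00034) and by 1.27 at 3 days (0.0007), and Col1a1, its other chain, fell by 0.92 (0.011) and 0.95 (0.004). Fbln1, the matrix protein fibulin-1, rose by 0.79 ± 0.20 at 3 days (limma adjusted p = 0.019), a call lost without 3 days replicate 2 or 3. Leaving out 0 hours replicate 2 gave 4 that rose at 3 days, leaving out 0 hours replicate 3 gave 3, and leaving out 2 hours replicate 2 or 3 days replicate 1 gave 2. Thy1, a fibroblast surface protein, had a log2 change of 0.72 ± 0.24 that did not pass (0.056). Minus the mean of the fibroblast markers on the same array, Ctsk was 0.10 ± 0.15, -0.97 ± 0.07, -0.94 ± 0.43 and -0.78 ± 0.33 on the log2 scale at the 4 times (SD, n = 3 each). The fibroblast sums were 108185 to 114864 at 2 hours and 114242 to 146957 at 3 days, against 155030 to 170314 at 0 hours. The brightest genes weigh most in these sums. Mean intensity at 0 hours, 2 hours and 3 days was 50643, 26830 and 26210 for Col1a1, and 33623, 10995 and 13940.5 for Col1a2. The sums therefore do not describe the list in general, whose medians are given above. Without any 1 array 2 to 5 fibroblast markers fell at 2 hours, with 2 left without 0 hours replicate 3 or any 2 hours array. The 6 that rose at 14 days became 1 without 14 days replicate 1 and 3 without 14 days replicate 2 or 0 hours replicate 1, and 0 with either covariate. Hair follicle markers moved at the same time, with 7 of 11 higher at 14 days (median 1.67; 0 with either covariate), though 8 of the 11 passed the filter only through the 14 days arrays. Of the osteoclast markers, Acp5 (-0.46 ± 0.29, limma adjusted p = 0.31) and Nfatc1 (0.12 ± 0.29, 0.82) did not pass at 3 days; Mmp9, which neutrophils also make, rose, but 2 of its 0 hours arrays were at the floor.

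**Figure D3:**
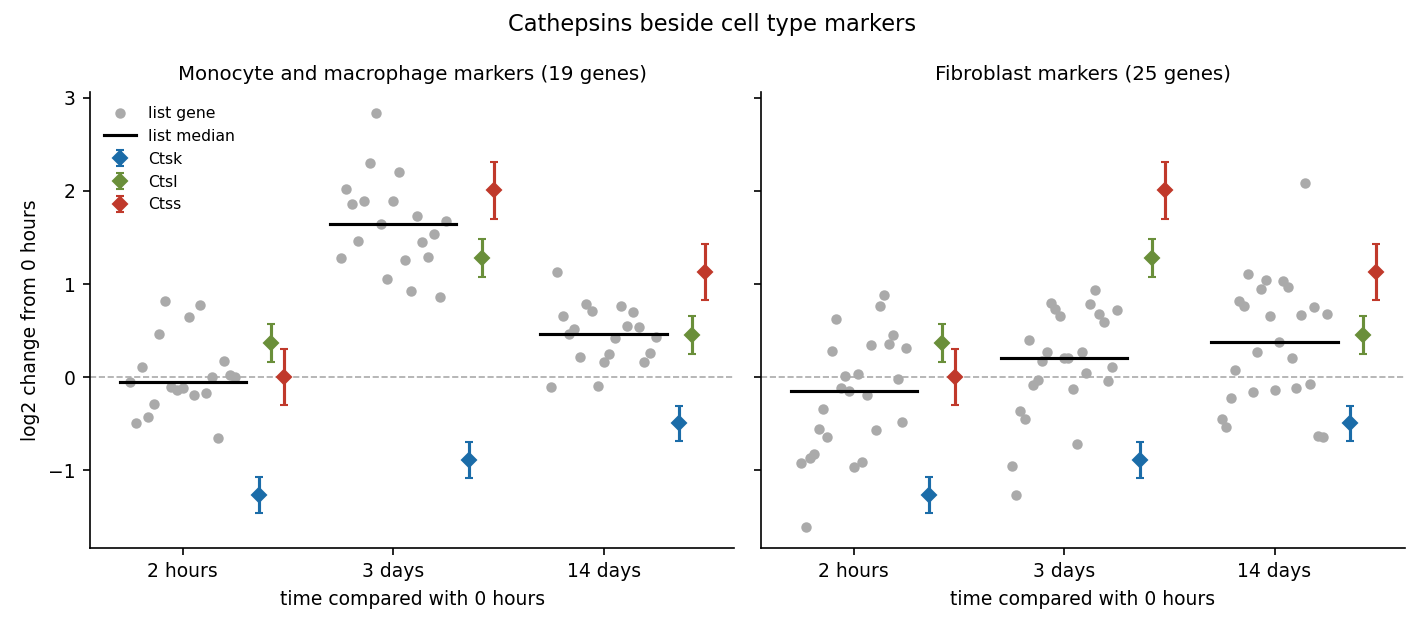
Log2 change against 0 hours of the macrophage markers and fibroblast markers (grey points, black bar the list median) with the cathepsins as diamonds with SE. Ctss at 2.01 lay above the macrophage median of 1.65 at 3 days, and Ctsk at -0.89 lay below the fibroblast median of 0.20. Of the 19 macrophage markers, 5 passed the filter only through the 3 days arrays, and the other 14 had a median of 1.59 at 3 days.

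Several other cathepsins rose at 3 days, and none fell. Of 6 other cysteine cathepsin family members tested of 17 listed, none passed at 2 hours, 3 rose at 3 days and 1 at 14 days. Over all genes 8.89% were called higher at 3 days and 6.90% at 14 days. Ctsc, the dipeptidase that activates granule serine proteases, rose by 1.82 ± 0.25 at 3 days (limma adjusted p = 0.00051) and by 1.06 ± 0.25 at 14 days (0.018), the 14 days change not called without 0 hours replicate 1 or 14 days replicate 1, nor with either covariate. Ctsb, a broadly expressed lysosomal cathepsin, rose by 0.79 ± 0.19 (0.014), and Ctsz, a carboxypeptidase, by 0.87 ± 0.23 (0.022) at 3 days. Ctsh, an aminopeptidase, had 0.57 ± 0.20 (0.065), Ctsf 0.02 ± 0.21 (0.97) and Tinagl1, a related protein without protease activity, 0.41 ± 0.29 (0.37). The family count at 3 days was 1 to 3 without any 1 array, with 1 without 3 days replicate 2 or 3, and 0 with either covariate. Lgmn, legumain, which processes the precursors of cathepsins, rose by 1.96 ± 0.29 at 3 days (limma adjusted p = 0.00058) and fell by 1.54 from 3 days to 14 days (0.0063). The aspartic cathepsins Ctsd (0.33 ± 0.19, 0.25) and Ctse (0.33 ± 0.25, 0.41) and the serine carboxypeptidase Ctsa (0.26 ± 0.22, 0.46) did not pass at 3 days. Other probe sets of some genes gave other log2 changes from 0 hours. For Ctse, 93860_i_at had 0.67 at 3 days. For Ctsb, 95608_at had 1.03 at 3 days, and 92256_at had 0.61 at 3 days and -0.41 at 14 days, where the probe set used had 0.19. For Ctsc, 101020_at had 1.58 at 3 days.

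The lists overlap: Laptm5 is in the macrophage and lysosomal lists, Col1a1, Col1a2 and Col3a1 in the fibroblast and matrix lists, Mmp9 in the osteoclast and neutrophil lists, Acp5 in the osteoclast and lysosomal lists, and Thy1 in the fibroblast and lymphocyte lists. Of the inhibitors, 4 of 22 listed had a probe set and 2 were tested. Cstb, the cytosolic stefin B, rose by 0.84 ± 0.23 at 3 days (limma adjusted p = 0.029), and this was lost without 0 hours replicate 1, 3 days replicate 2 or 3 days replicate 3. Cst3, the secreted cystatin C, had -0.33 ± 0.22 (0.33). Ctla2b and Serpinb3a were at the floor on all 12 arrays.

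**Figure D4:**
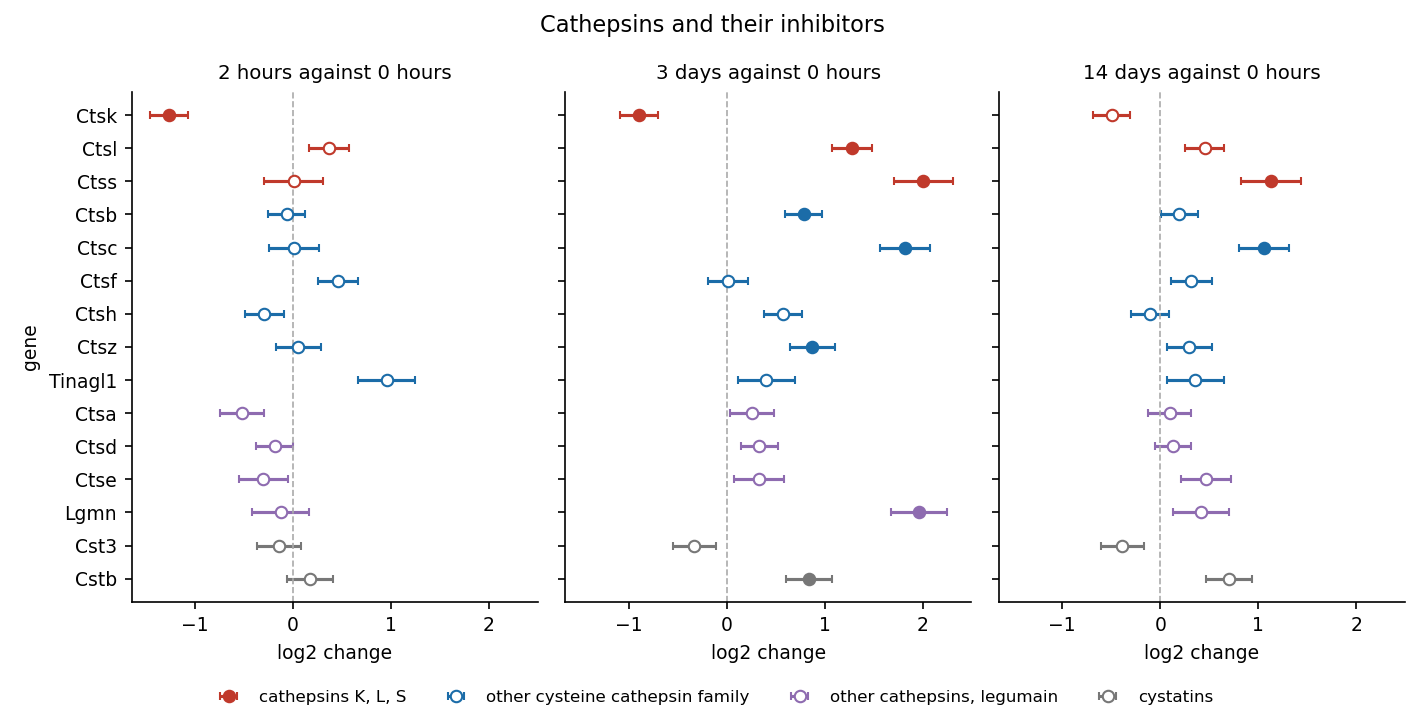
Log2 change ± SE against 0 hours of the cathepsins, legumain and cystatins tested; filled symbols have an adjusted p under 0.05 and open symbols do not. Ctsk is the only one filled to the left of 0, at 2 hours and 3 days, while Ctss, Lgmn and Ctsc reach 2.01, 1.96 and 1.82 at 3 days.

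Of 28 lysosomal genes tested of 56 listed, 7 rose at 3 days (median 0.35; 1 of the 7 passed the filter only through the 3 days arrays), among them the granulin precursor Grn (1.38 ± 0.21, limma adjusted p = 0.00068) and the haematopoietic lysosomal membrane protein Laptm5 (1.26 ± 0.22, 0.002); the count was 2 without 0 hours replicate 1 or 3 days replicate 3, 4 without 0 hours replicate 3 or 3 days replicate 1, and 0 with either covariate. Of 7 MHC class II presentation genes tested, only Ifi30, the lysosomal thiol reductase, rose at 3 days (1.27 ± 0.26, limma adjusted p = 0.0051), whereas H2-Aa (0.63 ± 0.30, 0.17) and H2-Ab1 (0.54 ± 0.32, 0.27), chains of the class II molecule, did not pass. Of 7 matrix substrates and partners tested of 13 listed, 4 fell at 2 hours (median -0.92) and 3 at 3 days (median -0.56). Over all genes 8.89% were called higher and 4.40% lower at 3 days, and 1.67% lower at 2 hours. The 1 class II call of 7 is near the 3 days share called higher. With either covariate no gene of the cathepsin, inhibitor, fibroblast, class II and matrix lists was called at 3 days. Sparc, a collagen-binding protein, fell by 1.07 at 2 hours (limma adjusted p = 0.0036) and by 1.15 at 3 days (0.001), and Bgn, the proteoglycan biglycan, had 0.62 ± 0.26 at 3 days (0.12).

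Each cathepsin was matched to the tested genes with the most similar profile, as the root mean square difference of mean-centred log2 values over the 12 arrays. For Ctsk, whose own root mean square was 0.496, these were the phosphatase subunit Ppp2r5d (0.115), Col1a2 (0.248), the linker histone H1f2 (0.256), Col1a1 (0.260) and the desaturase Scd2 (0.270). However, 2 of the Ppp2r5d arrays at 2 hours were at the floor. For Ctsl (0.501) they were the adaptor Skap2 (0.208), Grn (0.218), the TNF receptor Tnfrsf1b (0.232), the anthrax toxin receptor Antxr2 (0.247) and the sorting nexin Snx1 (0.248). For Ctss (0.913) they were the leukocyte surface glycoprotein Cd52 (0.289), Lst1 (0.312), the macrophage lysosomal protein Cd68 (0.318), Ctsc (0.325) and lysozyme, Lyz2 (0.364). Ctsl was the 71st nearest gene to Ctss and Ctsk the 2779th, whereas from Ctsk, Ctsl was 3050th and Ctss 3379th of the genes tested. The arrays share these values with every gene on them, so the ranks are descriptions of these 12 arrays.

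**Figure D5:**
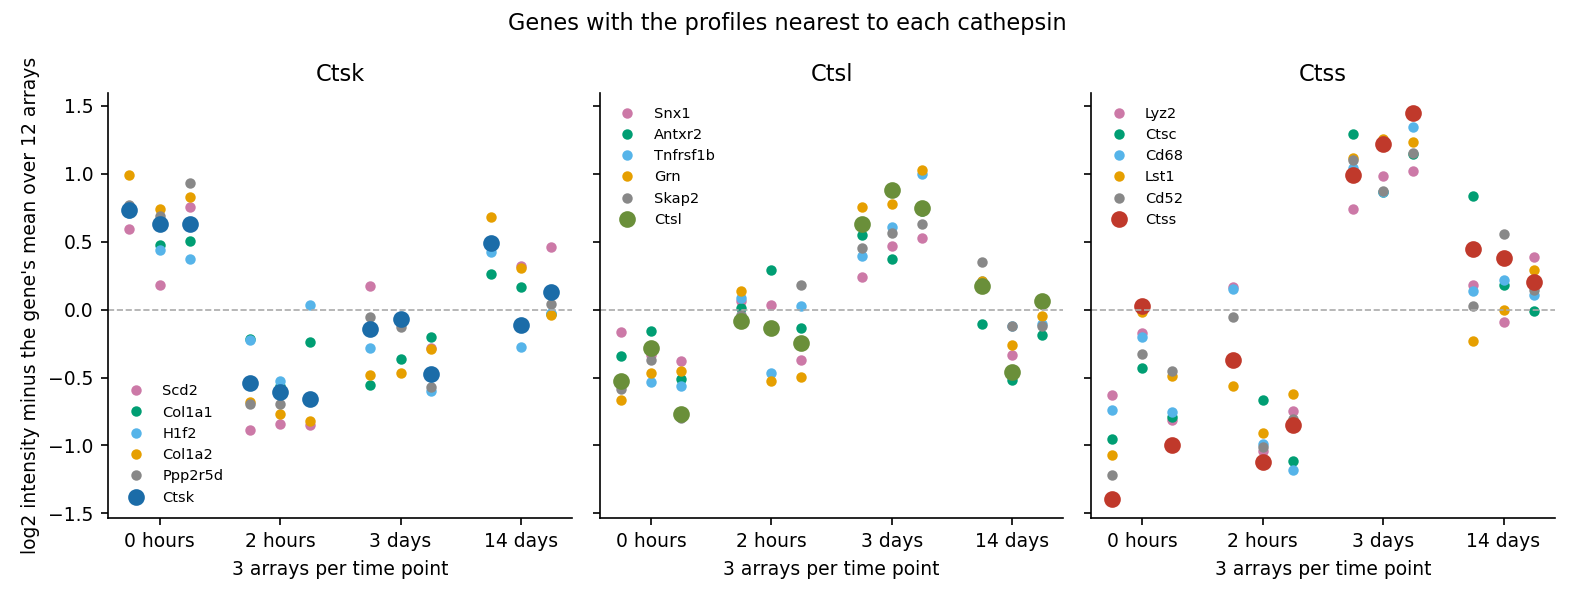
Mean-centred log2 intensity over the 12 arrays of each cathepsin and its 5 nearest genes. By group mean, Ctsk, Ppp2r5d, Col1a2 and Scd2 are lowest at 2 hours, and H1f2 and Col1a1 at 3 days. The Ctss set, with Cd52 at 0.289 and Lyz2 at 0.364 root mean square difference, peaks at 3 days.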

How the data were processed

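Intensities were the authors' deposited linear signal per probe set, 1 value per array; the summarising software, scaling and genome build stay unnamed in the labels and headers. Groups and repeat numbers came from the labels. Trimmed means of the arrays deviated by at most 8.56%, so values were not rescaled. They were floored at 225.375 (the pooled 25th percentile), log2-transformed, and kept where 3 or more arrays exceeded 475.55 (the pooled median); the probe set with the highest mean stood for each gene. limma 3.58.1 in R 4.3.3 fitted 1 coefficient per time point over all 12 arrays (8 residual and 6.63 prior degrees of freedom), with Benjamini-Hochberg adjustment over 3477 genes and a call at 0.05; the fit was tested on simulated data. Pairs of members used an exact permutation test over 15400 divisions. Members and lists were chosen with earlier results of these data known. Genes named are the members, all tested cathepsins and inhibitors, up to 4 of each list with the smallest p at 3 days, and the 5 nearest profiles. Deviations of 18 same-numbered pairs of arrays from their time means correlated with a median of -0.066, 2 over 0.1. Pairs with different numbers were not compared, so this cannot show whether the numbers pair the samples. The labels do not say so, and the main fit used no pairing. Alternatives covered normalization, floor, filter, probe set, variance model, weights, covariates, block and left-out arrays.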

Additional observations from a re-analysis of the deposited data

How the results depend on the processing

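Of 612 values of 24 results under up to 27 settings (17 for the pair tests), 546 stayed on the same side of the threshold. Of the rest, 62 lost the call and 4 gained it, and no called value changed sign. Of values never called, Ctss at 2 hours against 0 hours (-0.30 to 0.41) and Ctsl at 14 days against 2 hours (-0.041 to 0.28) took both signs when 1 array was left out; adjusted p-values are limma's. Without a filter on dim probe sets, Ctss at 14 days against 0 hours (1.13, 0.10), Ctss at 14 days against 2 hours (1.13, 0.093) and Ctsl at 14 days against 3 days (-0.83, 0.066) lost the call. Array weights added Ctsk at 3 days against 2 hours (0.48, 0.038) and Ctss at 14 days against 3 days (-0.87, 0.014). With only the 2 time points compared, Ctss at 14 days against 0 hours (1.13, 0.091) and Ctsl at 14 days against 3 days (-0.83, 0.067) lost it and Ctss at 14 days against 3 days (-0.88, 0.032) gained it. Whether repeat numbers pair the samples is not known. With the replicate block, Ctsl at 14 days against 3 days (-0.83, 0.069) and Ctss minus Ctsl (0.73, exact permutation p = 0.090) lost the call. No other member call changed.

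A test for a log2 change of at least 1 passed none of the 10 called changes: Ctsk -1.27 and -0.89 (2 hours, then 3 days, against 0 hours) and 0.77 (14 days against 2 hours); Ctsl 1.28 and 0.91 (3 days against 0 and 2 hours) and -0.83 (14 days against 3 days); Ctss 2.01 and 2.00 (3 days against 0 and 2 hours) and 1.13 and 1.13 (14 days against 0 and 2 hours). Their adjusted p-values were 1 except 0.21 and 0.27 for Ctss at 3 days. With the Gapdh ratio, lost values at 3 days against 0 hours were -0.81 for Ctsk, 1.02 for Ctsl and 1.48 for Ctss; at 14 days against 0 hours Ctss 0.49; at 3 days against 2 hours Ctsl 0.73 and Ctss 1.64; at 14 days against 2 hours Ctsk 0.85 and Ctss 0.65; and the Ctss F-test had an adjusted p of 0.066. With the muscle mean they were -0.76 for Ctsk, 1.18 for Ctsl and 1.40 for Ctss at 3 days against 0 hours, 0.61 for Ctss at 14 days against 0 hours, 0.86 for Ctsl at 3 days against 2 hours, and 0.92 for Ctss at 14 days against 2 hours. The cause of the lost calls was not tested.

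Leaving out 1 array at a time gave -0.97 to -0.77 for Ctsk at 3 days against 0 hours (called in 11 of 12 fits), 0.83 to 1.54 for Ctss at 14 days against 0 hours (7), 0.85 to 0.97 for Ctsl at 3 days against 2 hours (9), 0.61 to 0.92 for Ctsk at 14 days against 2 hours (9), 0.96 to 1.33 for Ctss at 14 days against 2 hours (8), -0.95 to -0.63 for Ctsl at 14 days against 3 days (5), -0.99 to -0.76 for Ctss at 14 days against 3 days (1) and 0.43 to 1.01 for Ctss minus Ctsl (5). The count of called genes, over all settings, was 5 to 316 (196 as reported) at 2 hours and 4 to 558 (462) at 3 days against 0 hours, 2 to 486 (352) at 14 days against 0 hours, 16 to 934 (327) at 3 days against 2 hours, 22 to 870 (425) at 14 days against 2 hours, 7 to 363 (118) at 14 days against 3 days and 205 to 1245 (734) by the F-test. List counts without an array or with a covariate were added after seeing the data. With 3 arrays a time, their number limits the precision.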
